A study of Mus musculus with 18 samples.

Results

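The 9 genes described here, Nppa, Nppb, Myh7, Acta1, Ankrd1, Ankrd2, Rcan1, Xirp1 and Xirp2, are a named list of heart genes known for their response to wall stress and stretch, taken by name. The members and the other gene lists were chosen with earlier results of these data known. Their counts beside the shares of all genes are therefore a description and not independent support. All 9 were found by symbol among the 30583 genes of the count table, and all 9 were among the 16311 genes that passed the filter on low counts. RNA came from left ventricular myocardium of 18 male C57BL/6JR mice aged 12 weeks, with 3 mice in each of 6 groups and 1 poly(A)-selected library per mouse. In the sham group, labelled 0 h, the suture was passed but not tied; in the other 5 groups the left anterior descending coronary artery was tied to produce a myocardial infarction, and tissue was taken 10 min, 1, 6, 24 or 72 h later. All groups shared pentobarbital anaesthesia and the operation, and the labels give no genetic change and no other drug for any group. A single sham group served every time point, so time since surgery was not matched. The labels give cardiomyocytes as the cell type but describe tissue, with no separation of cells, and the libraries also held fibroblast, macrophage and endothelial transcripts. The comparisons ask when, and by how much, each gene differed from sham and from the time point before.

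As background, heart muscle cells under raised load, stretch or oxygen lack return in part to a fetal pattern of expression. They release the natriuretic peptides encoded by Nppa and Nppb, which act on vessels and kidney to lower blood volume and pressure. They also express the slow myosin heavy chain Myh7 and the skeletal actin Acta1 beside the adult forms Myh6 and Actc1. Ankrd1 and Ankrd2 encode ankyrin repeat proteins that bind titin near the Z-disc and can move to the nucleus, Xirp1 and Xirp2 encode Xin proteins that bind actin at the intercalated disc, and Rcan1 encodes an inhibitor of calcineurin, the phosphatase that activates NFAT transcription factors.

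Libraries held 18.2 to 25.1 M counts (M, mega), and levels are given as CPM, counts per M counts of the library, scaled by TMM, a method that sets most genes level between libraries. A gene was called when its edgeR quasi-likelihood p was under 0.05 after Benjamini-Hochberg adjustment across all 16311 genes tested. The make-up of the tissue moved with time. The 12 cardiomyocyte reference genes summed to 76853 to 83502 CPM in sham, 36274 to 53335 CPM at 24 h and 21089 to 27799 CPM at 72 h, and all 12 were called lower at 72 h. Over the same groups the 8 fibroblast markers summed to 805 to 915, 929 to 1402 and 12453 to 16067 CPM, and the 8 macrophage markers to 294 to 339, 634 to 789 and 3519 to 4640 CPM; all 8 of each list were called higher at 72 h. Of all genes, 34.2% were called higher and 32.2% lower at 72 h. In tissue, fewer cells of a type and less RNA per cell cannot be told apart. Replicate 1 at 6 h held the atrial genes Myl4 at 59.1, Myl7 at 49.3, Sln at 42.6 and Bmp10 at 21.2 CPM, where the highest values in the other 17 libraries were 2.62, 1.1, 0.474 and 0.0318 CPM. The 5 atrial markers together gave 192 CPM there, 3.04 and 3.44 CPM in the other 6 h libraries and 3.42 to 5.73 CPM in sham. The fifth marker, Dkk3, was also raised at 72 h, where the sum was 30.4 to 32.9 CPM. The 9 skeletal muscle markers in the table summed to at most 9.74 CPM in any library, with Myh1 and Myh2 at no more than 3 counts.

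The course was shared in outline. No member was called at 10 min or 1 h, 6 of 9 were called at 6 h, all 9 at 24 h, and 6 at 72 h (DESeq2 called all 9 at 6 h as well), of which 5 were higher and 1 lower. At those 5 times 0.0736%, 0.294%, 28.4%, 43.8% and 66.4% of all genes were called. At 6, 24 and 72 h 16.3%, 23.7% and 34.2% were called higher and 12.2%, 20.2% and 32.2% lower. Counted in either direction, the 6 of 9 members called at 72 h were near the share of all genes called then. The median log2 change of the 9 members was 2.23 at 6 h, 1.96 at 24 h and 0.86 at 72 h, beside -0.01, 0.01 and 0.03 over all genes. Nppb, Rcan1 and Xirp1 had their highest group mean at 6 h, and Nppa, Myh7, Acta1, Ankrd1, Ankrd2 and Xirp2 at 24 h. The F test over all groups called 9 of 9 members, where it called 78.4% of all genes. Per gene length, sham levels ran from 0.484 CPM per kb for Ankrd2 over 24.2 to 28.8 for Rcan1, Xirp2, Myh7 and Xirp1 to 168, 183, 293 and 428 CPM per kb for Nppa, Acta1, Nppb and Ankrd1.

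**Figure D1:**
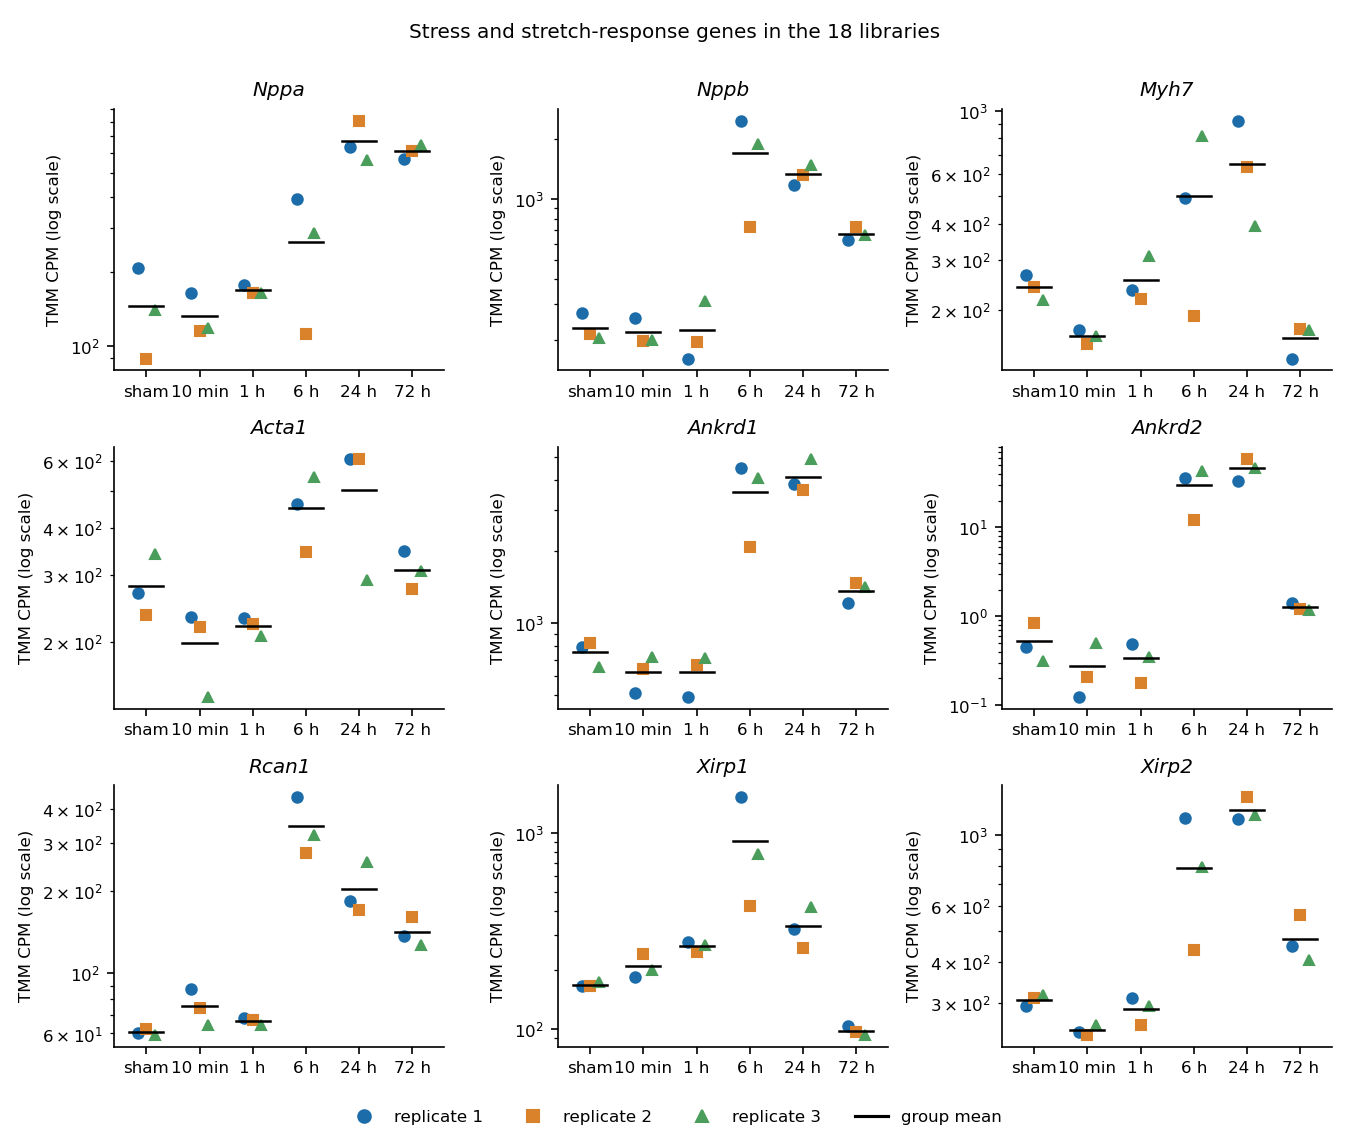
Level of each of the 9 genes in the 18 libraries, as TMM-scaled CPM on a log axis, by group; each point is 1 mouse, marked by replicate number, and the bar is the group mean. The 10 min and 1 h points lie near sham, the 6 h replicate 2 square is the lowest 6 h point in all 9 panels, and Nppa alone keeps a 72 h mean near its 24 h mean (608 and 668 CPM).

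**Figure D2:**
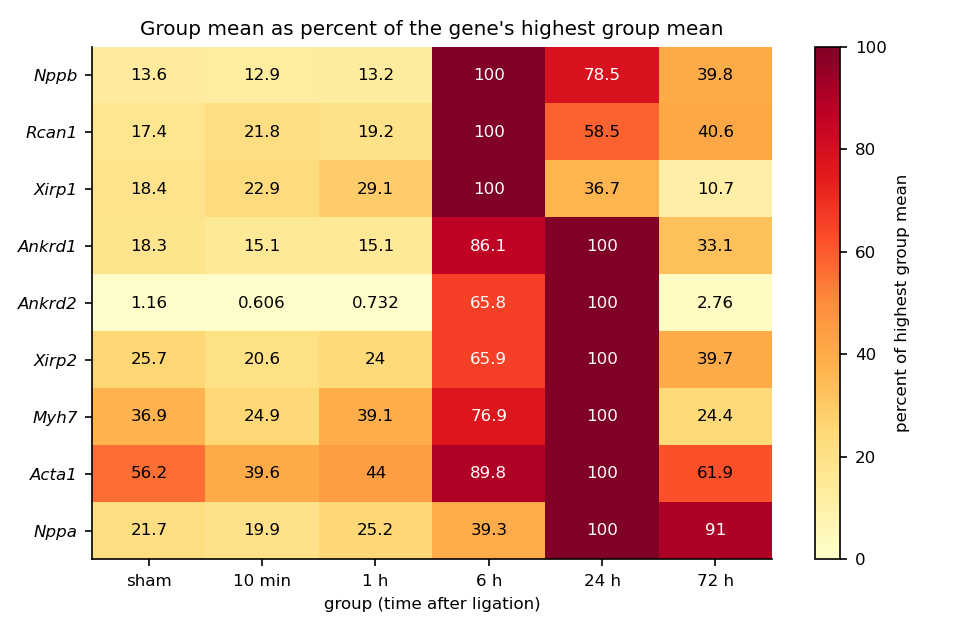
Group mean CPM of each gene as a percent of its own highest group mean, by group, with the value printed in each cell. Ankrd2 goes from 1.16% in sham to 100% at 24 h and 2.76% at 72 h, while Nppa is still at 91% at 72 h and Xirp1 ends at 10.7%, under its sham value of 18.4%.

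Within the first hour no member passed the test (edgeR; 0 members also with unadjusted p under 0.05, where 1144 genes had such a p at 10 min and 899 at 1 h; DESeq2 and limma also called 0). Libraries of 10 min and sham did not overlap for 5 of 9 members, against 20% of all genes. Among these Rcan1 and Xirp1 lay above sham and Myh7, Acta1 and Xirp2 below it, as did 11% and 9.07% of all genes. At 1 h the count was 3 of 9, with 2 above and 1 below sham, against 16.9% of all genes (8.25% above and 8.66% below). At the later times the libraries of 7, 8 and 8 members did not overlap sham at 6, 24 and 72 h, against 44.3%, 53.7% and 75.8% of all genes; all lay above sham at 6 h and 24 h (23.1% and 28% of all genes), and 6 above and 2 below at 72 h (39.3% and 36.5%). Xirp1, which codes for the Xin protein of the intercalated disc, read 165, 166 and 173 CPM in sham, 185, 241 and 199 CPM at 10 min and 278, 247 and 269 CPM at 1 h. Each 1 h library was above each 10 min library and each 10 min library above each sham library, with a fitted 1.58-fold difference from sham at 1 h (log2 0.66 ± 0.31 SE; edgeR adjusted p = 0.905). These early results depended on which libraries set the spread. In a fit of only the 6 libraries compared, Xirp1 was called higher at 1 h (adjusted p = 1.27e-05), and Myh7 and Xirp2 were called lower at 10 min (0.000787 and 0.0181, log2 -0.58 and -0.32).

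The secreted hormones were followed first. Nppa (ENSMUSG00000041616, chr4:148000722-148002079, plus strand, mm10), the gene of atrial natriuretic peptide, read 206, 89.4 and 140 CPM in sham, 391, 112 and 285 CPM at 6 h, 636, 808 and 560 CPM at 24 h and 569, 608 and 646 CPM at 72 h. The 6 h libraries overlapped sham because replicate 2 lay within the sham range, while every library of 24 h and 72 h lay above every library of the earlier groups. The gene was not called at 6 h (1.81-fold, log2 0.85 ± 0.36 SE, edgeR adjusted p = 0.0871). It rose 4.6-fold at 24 h (log2 2.20 ± 0.37, edgeR adjusted p = 0.000334) and 4.18-fold at 72 h (log2 2.06 ± 0.37, edgeR adjusted p = 0.000161). In the order of levels 24 h and 72 h overlapped, as did each neighbouring pair among 6 h, 1 h, sham and 10 min. Since Nppa is also an atrial gene, its 6 h value was computed without replicate 1, the library with atrial transcripts: the fold was then 1.37 (edgeR adjusted p = 0.411). The call at 6 h also turned on other libraries, with an adjusted p of 0.003 without replicate 2 at 6 h and 0.042 without sham replicate 1, and DESeq2 called it (0.0471). Nppa shares 532 exon bases with the antisense gene Gm13054, which had at most 64 counts; use of strand is not given in the sources used here.

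Nppb (ENSMUSG00000029019, chr4:147985788-147987205, plus strand), which encodes brain natriuretic peptide and lies beside Nppa on the chromosome, had a different course. It read 271, 213 and 203 CPM in sham, 2456, 727 and 1887 CPM at 6 h, 1182, 1313 and 1485 CPM at 24 h and 625, 730 and 664 CPM at 72 h. Every library from 6 h on lay above every earlier one. The rise over sham was 7.38-fold at 6 h (log2 2.88 ± 0.35, edgeR adjusted p = 4.67e-05), 5.79-fold at 24 h (log2 2.53 ± 0.34, 5.98e-05) and 2.94-fold at 72 h (log2 1.56 ± 0.33, 0.000741). Without 6 h replicate 1 the 6 h rise was 5.7-fold (edgeR adjusted p = 0.000117). Neighbouring groups overlapped at the top (6 h and 24 h) and at the bottom (sham, 1 h and 10 min) of its order.

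The ratio of Nppb to Nppa within a library does not depend on library scaling. Per gene length it was 146%, 264% and 160% in the sham libraries, 696%, 721% and 735% at 6 h, 206%, 180% and 294% at 24 h and 122%, 133% and 114% at 72 h. The 3 libraries of 6 h were nearly equal in this ratio (717% ± 19.5, SD, n = 3) although their Nppa levels differed. Replicate 1, with its atrial transcripts, had the lowest of the 3, at 696%. An atrial share in its Nppa or Nppb counts was not tested. At 6 h the ratio was 3.91-fold the sham ratio (log2 difference 1.97, two-sided exact permutation p = 0.1, adjusted p = 0.15) and at 72 h 0.669-fold (log2 difference -0.58, the same exact p). With 3 against 3 libraries 0.1 is the smallest p this test can give, and p-values were adjusted over the 15 ratio tests.

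Genes that process and receive these peptides are given by their counts. Of 9 listed genes 8 passed the filter; 2 were called higher and 2 lower at 6 h, 1 and 3 at 24 h, and 1 and 5 at 72 h (all genes: 16.3% higher and 12.2% lower at 6 h, 23.7% and 20.2% at 24 h, 34.2% and 32.2% at 72 h), with a median log2 change of -0.85 at 72 h beside 0.03 over all genes. Corin, the protease that cuts pro-ANP on the cardiomyocyte surface, was at 151 ± 5.17 CPM in sham, 156 ± 33.7 CPM at 24 h and 43.9 ± 4.88 CPM at 72 h (SD, n = 3), and fell at 72 h (log2 -1.78 ± 0.14 SE, edgeR adjusted p = 3.81e-09). Npr2, a guanylyl cyclase receptor for C-type natriuretic peptide, fell at 6, 24 and 72 h (log2 -0.36, -0.51 and -0.98; edgeR adjusted p = 0.0131, 0.00063 and 1.14e-07). Npr3, the receptor that clears the peptides, was not called at 6 h (log2 0.24) and fell at 24 h and 72 h (log2 -1.27 and -1.03; edgeR adjusted p = 0.0022 and 0.00375).

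Among the contractile isoforms, Myh7 (ENSMUSG00000053093, chr14:54970684-54994626, minus strand), the slow myosin heavy chain, read 265, 240 and 215 CPM in sham, 170, 152 and 162 CPM at 10 min, 492, 189 and 818 CPM at 6 h, 922, 633 and 394 CPM at 24 h and 135, 172 and 170 CPM at 72 h. The 10 min and 72 h libraries all lay below sham, the 24 h libraries all above it, and the 6 h libraries on both sides. It rose 2.71-fold at 24 h (log2 1.44 ± 0.40, edgeR adjusted p = 0.00939) and was not called at 6 h (2.08-fold, adjusted p = 0.0582) or 72 h (0.662-fold, adjusted p = 0.193). The 6 h value was called without replicate 2 (2.73-fold, edgeR adjusted p = 0.00147) or where each library had to hold at least 10 counts of a gene (0.0443), and by DESeq2 (0.0205). Groups that neighbour each other in level overlapped, except sham and 10 min. Myh7 and Myh6 are near-identical paralogs, between which reads may be split, and Myh7 shares 484 exon bases with the antisense RNA Mhrt, which had at most 475 counts in a library and fell at 24 h and 72 h (log2 -1.56 and -1.93; edgeR adjusted p = 0.00045 and 1.67e-05).

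Acta1 (ENSMUSG00000031972, chr8:123891769-123894751, minus strand), the skeletal muscle alpha-actin, read 268, 235 and 340 CPM in sham, 462, 344 and 544 CPM at 6 h, 606, 604 and 292 CPM at 24 h and 347, 276 and 307 CPM at 72 h. All 6 h libraries lay above sham, whereas replicate 3 at 24 h fell within the sham range. It was called at 24 h (1.78-fold, log2 0.83 ± 0.25, edgeR adjusted p = 0.0137), not at 6 h (1.6-fold, adjusted p = 0.0543) and not at 72 h (1.1-fold, adjusted p = 0.639). The 24 h call was lost without sham replicate 2 or 24 h replicates 1 or 2 (edgeR adjusted p = 0.0613, 0.0576 and 0.0599) and in the fit of 6 libraries. The 6 h value was called without sham replicate 3 or 6 h replicate 2 (0.0473 and 0.0286) and by DESeq2 (0.0193). It was also called with at least 10 counts in each library, in the fit of 6 libraries and relative to cardiomyocyte reference genes. The 72 h value was called higher under scaling by library total, with limma and relative to cardiomyocyte reference genes (3.66-fold). In 24 h replicate 3 the cardiomyocyte reference genes took 3.85% of counts, beside 5.3% and 6.02% in replicates 1 and 2. The part of this difference in the Acta1 value was not tested. In the order of levels, each group overlapped its neighbour except sham and 1 h.

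Set against their adult counterparts, both genes gained share within the library. Myh7 stood at 0.794%, 0.765% and 0.701% of Myh6 per gene length in sham, 1.85%, 0.676% and 2.5% at 6 h, 5.6%, 4.14% and 4.49% at 24 h and 1.55%, 2.7% and 2.46% at 72 h. All libraries of 24 h and 72 h lay above all of sham, with ratios 6.25-fold and 2.89-fold the sham ratio (log2 difference 2.64 and 1.53; two-sided exact permutation p = 0.1 each, adjusted p = 0.15, the smallest of the 15). Acta1 stood at 2.71%, 2.77% and 3.52% of Actc1 in sham, 6.07%, 3.59% and 6.79% at 6 h, 8.74%, 6.13% and 6.5% at 24 h and 7.5%, 7.47% and 7.71% at 72 h. Every library from 6 h on was above sham, and the ratio was 1.78-fold, 2.37-fold and 2.54-fold at the 3 times (exact permutation p = 0.1 each). At 10 min both ratios lay below sham in all 3 libraries (0.689-fold and 0.712-fold, exact permutation p = 0.1).

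**Figure D3:**
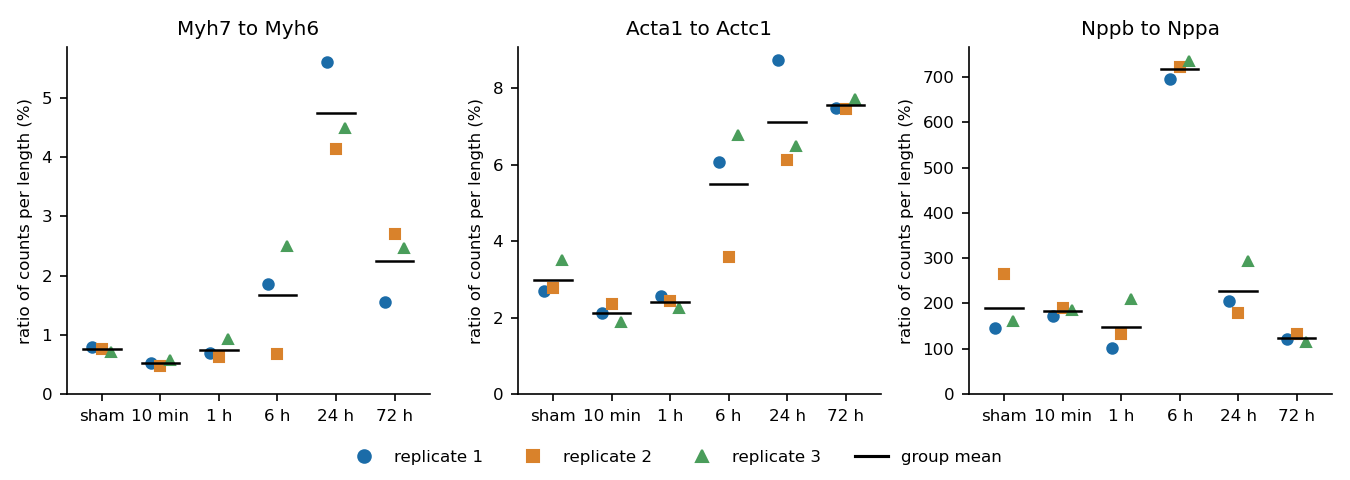
Ratio of paired genes within each library, as a percent of counts per gene length, by group; each point is 1 mouse and the bar is the group mean, with axes from 0. Myh7 to Myh6 is highest at 24 h (4.74% ± 0.765, SD, n = 3), Acta1 to Actc1 stays near 7.56% at 72 h, and Nppb to Nppa peaks at 6 h (717%).

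The denominators themselves fell. Myh6, the adult fast myosin heavy chain, was at 23507 ± 1004 CPM in sham, 9989 ± 3062 CPM at 24 h and 5409 ± 909 CPM at 72 h, and it fell at both times (log2 -1.23 and -2.12; edgeR adjusted p = 7.41e-05 and 2.64e-08). Actc1, the cardiac actin, was at 9864 ± 787 CPM in sham and 4321 ± 509 CPM at 72 h, where it fell (log2 -1.19, edgeR adjusted p = 6.4e-05); it was not called at 24 h (log2 -0.40, adjusted p = 0.125). Of the 8 listed contractile counterparts, 1 was higher and 1 lower at 6 h, 0 and 3 at 24 h, and 2 and 4 at 72 h. Of all genes, 16.3% were called higher and 12.2% lower at 6 h. At 24 h these shares were 23.7% and 20.2%, and at 72 h 34.2% and 32.2%. The list holds the atrial gene Myl4. Tnni3, cardiac troponin I, fell at 24 h and 72 h (log2 -0.87 and -2.17, edgeR adjusted p = 0.000385 and 3.67e-09). Acta2, smooth muscle actin, rose at 72 h (log2 1.40, edgeR adjusted p = 5.67e-05), from 121 ± 23.6 CPM in sham to 317 ± 45.4 CPM (SD, n = 3). It is itself 1 of the 5 smooth muscle markers, which summed to 390 to 504 CPM at 72 h beside 327 to 401 CPM in sham. That sum therefore holds the rise of Acta2 and is not a separate measure.

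Of the titin-associated ankyrin repeat genes, Ankrd1 (ENSMUSG00000024803, chr19:36111961-36120099, minus strand) was already abundant in sham, at 796, 822 and 649 CPM. It read 4471, 2092 and 4088 CPM at 6 h, 3842, 3630 and 4899 CPM at 24 h and 1211, 1476 and 1414 CPM at 72 h. Each library from 6 h on was above each earlier one, and 6 h and 24 h overlapped. The gene rose 4.7-fold at 6 h (log2 2.23 ± 0.24, edgeR adjusted p = 6.65e-06), 5.46-fold at 24 h (log2 2.45 ± 0.24, 1.32e-06) and 1.81-fold at 72 h (log2 0.86 ± 0.23, 0.00304). Without 6 h replicate 1 the 6 h rise was 4.08-fold (edgeR adjusted p = 2.14e-05).

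Ankrd2 (ENSMUSG00000025172, chr19:42036000-42045110, plus strand), known mainly from skeletal muscle, was near the limit of detection before 6 h. Sham libraries held 9, 16 and 7 counts (0.455, 0.83 and 0.311 CPM), 10 min libraries 2, 5 and 9 counts, and 1 h libraries 10, 3 and 6 counts. At 6 h it read 36.1, 12.2 and 42.6 CPM (605, 255 and 799 counts) and at 24 h 33, 58.9 and 46.2 CPM, and at 72 h it was back at 1.42, 1.22 and 1.18 CPM (45, 40 and 37 counts). The 6 h and 24 h libraries lay far above all others and overlapped each other; the 72 h libraries still lay above sham. It rose 57.3-fold at 6 h (log2 5.84 ± 0.51, edgeR adjusted p = 3.46e-06) and 87.3-fold at 24 h (log2 6.45 ± 0.51, 7.13e-07), with the size resting on few sham counts, and 51.6-fold at 6 h without replicate 1. At 72 h the 2.42-fold difference was not called (edgeR adjusted p = 0.0787), but DESeq2 called it (0.0307). It was also called under scaling by library total, with limma and in the fit of 6 libraries. Relative to cardiomyocyte reference genes Ankrd2 was 7.98-fold sham at 72 h (edgeR adjusted p = 5.68e-05). Per gene length Ankrd2 stood at 41.8 ± 11.8 CPM per kb at 24 h and Ankrd1 at 2336 ± 385 CPM per kb (SD, n = 3). The skeletal muscle markers summed to 3.52 to 5.31 CPM at 6 h and 3.71 to 5.8 CPM at 24 h, beside 4.2 to 6.8 CPM in sham.

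The Xin genes parted from each other after 6 h. Xirp1 (ENSMUSG00000079243, chr9:120013755-120023598, minus strand) read 1523, 425 and 784 CPM at 6 h, 323, 258 and 421 CPM at 24 h and 103, 96.4 and 93.1 CPM at 72 h, against 165, 166 and 173 CPM in sham. Its libraries separated from sham at every time, above it through 24 h and below it at 72 h. It rose 5.42-fold at 6 h (log2 2.44 ± 0.32, edgeR adjusted p = 9.83e-05; 3.61-fold without replicate 1) and 1.99-fold at 24 h (log2 0.99 ± 0.31, 0.0182). At 72 h it was called lower (0.582-fold, log2 -0.78 ± 0.31, edgeR adjusted p = 0.0377) under TMM scaling, higher when scaled to cardiomyocyte reference genes (log2 0.96), and not called under scaling by library total (log2 -0.20, adjusted p = 0.566). Leaving out any 1 of the 6 libraries ended the 72 h call (adjusted p 0.0642 to 0.0928). The 24 h call was lost without sham replicate 1 or 2 or 24 h replicate 3 (edgeR adjusted p = 0.0532, 0.0524 and 0.101).

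Xirp2 (ENSMUSG00000027022, chr2:67446002-67526614, plus strand) read 292, 311 and 316 CPM in sham, 1124, 439 and 795 CPM at 6 h, 1121, 1308 and 1149 CPM at 24 h and 450, 562 and 408 CPM at 72 h. All libraries from 6 h on lay above sham, and 6 h overlapped both 24 h and 72 h. It rose 2.56-fold at 6 h (log2 1.36 ± 0.22, edgeR adjusted p = 0.000328), 3.89-fold at 24 h (log2 1.96 ± 0.23, 8.2e-06) and 1.54-fold at 72 h (log2 0.63 ± 0.22, 0.0184). The 72 h call was lost without sham replicate 1 or 72 h replicate 2 (edgeR adjusted p = 0.0578 and 0.09). Without 6 h replicate 1 the 6 h rise was 2.01-fold (edgeR adjusted p = 0.000941).

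The 18 listed partners at the Z-disc and intercalated disc included 11 called higher and 0 lower at 6 h, 11 and 5 at 24 h, and 4 and 8 at 72 h, where 16.3% of all genes were called higher and 12.2% lower at 6 h, 23.7% and 20.2% at 24 h, and 34.2% and 32.2% at 72 h. Their median log2 change was 0.68, 0.72 and -0.48 at these times. Fhl1, a LIM protein that binds titin, was at 86.4 ± 3.42 CPM in sham, 360 ± 123 CPM at 6 h, 742 ± 137 CPM at 24 h and 169 ± 32 CPM at 72 h (SD, n = 3), and rose at all 3 times (log2 2.06, 3.10 and 0.97; edgeR adjusted p = 5.59e-06, 1.06e-07 and 0.00048). Tcap, the titin cap protein, fell at 24 h and 72 h (log2 -1.13 and -2.91; edgeR adjusted p = 0.000419 and 4.29e-09), and Myoz2, a Z-disc protein that binds calcineurin, fell at the same times (log2 -0.71 and -1.80; 0.00124 and 1.61e-08). Counts and changes of the pathway lists are on the TMM scale only, and the falls at 72 h came where 12 of 12 cardiomyocyte reference genes were called lower; the part of that in them was not tested.

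Rcan1 (ENSMUSG00000022951, chr16:92391953-92470867, minus strand), the calcineurin inhibitor, stood in sham at 60.3, 62.2 and 59.3 CPM. It read 444, 277 and 323 CPM at 6 h, 184, 171 and 256 CPM at 24 h and 136, 161 and 127 CPM at 72 h. On this TMM scale, groups from 6 h on were stepped downward with no overlap between neighbours, and all lay above sham; relative to cardiomyocyte reference genes there was no such decline, at 6.42-fold, 5.84-fold and 7.9-fold sham at 6, 24 and 72 h. The gene rose 5.74-fold at 6 h (log2 2.52 ± 0.17, edgeR adjusted p = 7.11e-08; 4.96-fold without replicate 1), 3.36-fold at 24 h (log2 1.75 ± 0.17, 1.17e-06) and 2.33-fold at 72 h (log2 1.22 ± 0.17, 4.23e-06). The table counts the gene as a whole, so transcripts from its separate start sites were not told apart.

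The other genes of the calcineurin pathway are given by their counts. Of 12 listed, 0 were called higher and 3 lower at 6 h, 1 and 1 at 24 h, and 5 and 4 at 72 h, beside 16.3% and 12.2% of all genes at 6 h, 23.7% and 20.2% at 24 h and 34.2% and 32.2% at 72 h, with a median log2 change between -0.06 and -0.03 at the 3 times. Rcan2, the paralog of Rcan1, was at 346 ± 19.4 CPM in sham, 423 ± 22.5 CPM at 6 h and 146 ± 17.1 CPM at 72 h (SD, n = 3); it was not called at 6 h (log2 0.29, edgeR adjusted p = 0.0735) and fell at 72 h (log2 -1.24, 5.3e-08). Cib1, a calcium-binding protein that anchors calcineurin, rose at 24 h and 72 h (log2 0.53 and 1.22; edgeR adjusted p = 0.000345 and 5e-09). Nfatc4, an NFAT factor, rose at 72 h (log2 1.02, edgeR adjusted p = 2.58e-05). At that time markers of other cell types went both ways. The median log2 change was 3.44 for fibroblast and 4.07 for macrophage markers, and -0.74 for endothelial and -1.22 for red blood cell markers.

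Transcription factors and cofactors of the stress programme were listed too, with 15 genes. At 1 h 1 was called higher, at 6 h 5 higher and 2 lower, at 24 h 3 and 3, and at 72 h 3 and 11. At 1 h 0.294% of all genes were called in either direction. The shares of all genes called higher and lower were 16.3% and 12.2% at 6 h, 23.7% and 20.2% at 24 h and 34.2% and 32.2% at 72 h. The median log2 change of the list was 0.12, 0.22, 0.06 and -0.51 at 1, 6, 24 and 72 h. Tbx5, a T-box factor of the heart, fell at 24 h and 72 h (log2 -0.51 and -1.90; edgeR adjusted p = 0.0135 and 1.39e-08). Mef2d, a MADS-box factor, fell at 72 h (log2 -0.94, edgeR adjusted p = 2.38e-08). Mrtfa, a cofactor of SRF that responds to actin, rose at 24 h and 72 h (log2 0.48 and 1.35; edgeR adjusted p = 0.0142 and 2.49e-07).

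Promoter sequence was read for the members because several moved together at 6 h and 24 h. RefSeq windows (GRCm38.p6, the assembly of mm10) were found for 8 of the 9 genes, 10 windows in all, and the 250 bases before each start were searched on both strands for 7 motifs. The 4 windows below carry a match to M-CAT (CATTCC, bound by TEAD factors), AP-1 (TGANTCA), the CArG box of SRF or the MEF2 box, hold no annotated exon base, and are printed 5′ to 3′ on the strand of the gene; capitals mark those matches.
Acta1 (chr8:123894776-123895025, minus strand): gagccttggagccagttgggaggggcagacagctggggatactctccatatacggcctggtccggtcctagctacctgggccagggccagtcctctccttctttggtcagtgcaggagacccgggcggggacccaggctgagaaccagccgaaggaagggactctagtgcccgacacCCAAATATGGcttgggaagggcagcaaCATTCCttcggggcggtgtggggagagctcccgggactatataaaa
Myh7 (chr14:54994627-54994876, minus strand): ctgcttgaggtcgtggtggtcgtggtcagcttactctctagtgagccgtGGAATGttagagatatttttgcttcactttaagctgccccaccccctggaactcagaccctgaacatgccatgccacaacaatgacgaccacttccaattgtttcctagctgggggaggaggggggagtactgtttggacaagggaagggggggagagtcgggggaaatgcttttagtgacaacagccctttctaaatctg
Rcan1 (chr16:92400079-92400328, minus strand): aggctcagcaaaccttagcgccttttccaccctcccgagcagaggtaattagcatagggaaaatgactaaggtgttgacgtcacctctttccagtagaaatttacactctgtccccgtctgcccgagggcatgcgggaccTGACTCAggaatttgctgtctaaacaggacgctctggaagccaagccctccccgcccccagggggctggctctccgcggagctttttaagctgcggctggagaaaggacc
Xirp2 (chr2:67445752-67446001, plus strand): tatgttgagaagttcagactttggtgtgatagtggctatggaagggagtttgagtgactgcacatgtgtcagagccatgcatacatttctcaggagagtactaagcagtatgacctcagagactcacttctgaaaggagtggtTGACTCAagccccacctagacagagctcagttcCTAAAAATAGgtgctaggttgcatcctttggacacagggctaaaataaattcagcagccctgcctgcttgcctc
Positions are counted back from the RefSeq start. Acta1 holds a CArG box at -73 to -64 and an M-CAT match at -46 to -41, and Myh7 an M-CAT match on the other strand at -201 to -196. The Rcan1 window, before the downstream of its 2 RefSeq starts, holds an AP-1 match at -110 to -104, and the Xirp2 window an AP-1 match at -107 to -101 and a MEF2 box at -74 to -65. M-CAT matches lay in windows of 4 of 8 members (Nppb, Myh7, Acta1 and Ankrd1) and in 12.6% of 32851 RefSeq windows of the same length. AP-1 lay in 2 of 8 and 6.75%, the CArG box in 1 of 8 and 1.47%, and the MEF2 box in 1 of 8 and 2.92%. Counted by window, as the shares are, these were 4, 2, 1 and 1 of the 10 member windows. The counts include windows with annotated exon bases, 250 of 250 for Ankrd1 and 112 for Nppb. The short cores of GATA factors (GATA), NFAT (GGAAA) and Nkx2-5 (AAGTG) are common, in 53.6%, 55.6% and 40.7% of all windows. They lay in 6, 2 and 3 of the 8 members and in 6, 3 and 4 of the 10 member windows. Nppa held GATA and Nkx2-5 cores and none of the 4 motifs in capitals. These matches describe letters in a window and were not tested against expression.

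The steps between consecutive times were tested in the same fit. From 10 min to 1 h 0 of 9 members were called (edgeR; 0 with unadjusted p under 0.05; 0 by DESeq2), where 0.307% of all genes were. From 1 h to 6 h 7 were higher, all but Nppa and Myh7, where 24.5% of all genes were called and 14.5% were higher; the folds ran from 2.04 for Acta1 to 86 for Ankrd2. Without 6 h replicate 2, Nppa and Myh7 were called at this step too (edgeR adjusted p = 0.0114 and 0.0027). From 6 h to 24 h Nppa rose 2.55-fold and Xirp2 1.52-fold (edgeR adjusted p = 0.0121 and 0.0497), and Rcan1 and Xirp1 fell to 0.585 and 0.367 of their 6 h level (0.00232 and 0.00355). At this step 27.8% of all genes were called, 14.2% higher and 13.7% lower. Relative to cardiomyocyte reference genes the falls of Rcan1 and Xirp1 at this step were lost (log2 -0.14 and -0.82, adjusted p = 0.651 and 0.0749), and Acta1, Myh7, Ankrd1 and Ankrd2 were called higher (log2 0.68, 0.93, 0.85 and 1.23; adjusted p 0.00379 to 0.031) beside Nppa and Xirp2. In the fit of 6 libraries 0 members were called. The Xirp2 step was lost without replicates 2 or 3 at 6 h and without any 1 of the 24 h libraries (adjusted p 0.0689 to 0.146), and without 6 h replicate 2 Nppb was called lower (log2 -0.71, adjusted p = 0.0255). From 24 h to 72 h 8 of 9 were called lower, where 50.5% of all genes were called and 26.1% were lower. Ankrd2 fell to 0.0277 of its 24 h level (edgeR adjusted p = 1.95e-07) and Myh7 to 0.244 (0.000756), and Nppa, at 0.91 of its 24 h level, was not called (0.775). Relative to cardiomyocyte reference genes only Myh7 and Ankrd2 were called lower at this step (log2 -0.93 and -4.19, edgeR adjusted p = 0.0221 and 4.55e-07) and Nppa was called higher (log2 0.90, 0.0318). The falls of Xirp2, Xirp1 and Ankrd1 were lost on that scale (log2 -0.32, -0.83 and -0.61; 0.283, 0.0588 and 0.0802), and Nppb, Acta1 and Rcan1 were at log2 0.01, 0.38 and 0.44, not called. The 72 h falls of Nppb, Acta1 and Rcan1 were lost under scaling by library total (edgeR adjusted p = 0.131, 0.325 and 0.459). They were also lost with 1 library left out: Nppb without 24 h replicate 3 or 72 h replicates 1 or 3 (adjusted p 0.0594 to 0.0693), Acta1 without 24 h replicates 1 or 2 or 72 h replicates 2 or 3 (0.0754 to 0.14), and Rcan1 without 24 h replicate 3 or 72 h replicate 3 (0.0772 and 0.059).

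In the levels of the members the 6 h libraries were far apart from each other, and replicate 2 was the lowest of the 3 for 9 of 9. In that library Nppa and Myh7 were below the sham mean (0.769-fold and 0.79-fold), while Ankrd2 was 22.9-fold, Rcan1 4.57-fold and Nppb 3.17-fold the sham mean. Replicate 1 was the highest of the 3 for 6 members and replicate 3 for 3. The neutrophil markers summed to 757, 269 and 103 CPM in replicates 1, 2 and 3. At 24 h they were also far apart, at 157, 36.1 and 663 CPM in replicates 1, 2 and 3. Without replicate 1 the same count of 6 members was called at 6 h, in a fit that called 2926 genes. Without replicate 2 all 9 members were called, in a fit that called 4655 genes. With all libraries 4639 genes were called at 6 h.

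**Figure D4:**
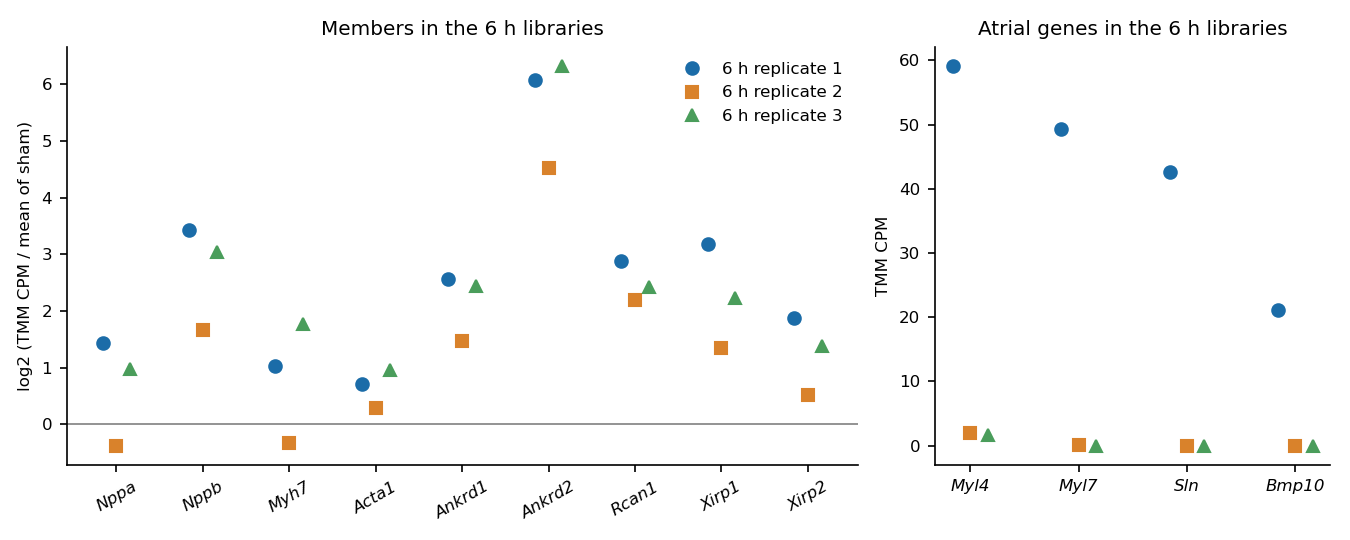
Left, log2 of each member's CPM over the sham mean in the 3 libraries of 6 h; right, CPM of the atrial genes Myl4, Myl7, Sln and Bmp10 in the same libraries. Replicate 2 is lowest for all 9 members, and replicate 1 alone holds the atrial genes, at 21.2 to 59.1 CPM.

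Because cardiomyocyte transcripts lost share with time, the members were also fitted relative to the 12 cardiomyocyte reference genes. These include Myh6 and Actc1, the denominators of the ratios above, so values on this scale and those ratios are not independent. On that scale 0 of 9 members were called at 10 min and 1 h (0.0123% and 0.19% of all genes; unadjusted p under 0.05 for 1 and 0 members; the TMM fits of DESeq2 and limma also called 0), 8 at 6 h (12.3% of all genes called higher), and 9 at both 24 h and 72 h, all higher, where 65.2% and 88% of all genes were called higher. The median log2 change of the members was 2.38, 2.70 and 2.62 at 6, 24 and 72 h, and that of all genes 0.14, 0.75 and 1.77. Nppa, the exception at 6 h, stood at 2.03-fold then (edgeR adjusted p = 0.0651; called without 6 h replicate 2 and with no filter), 7.63-fold at 24 h and 14.2-fold at 72 h. Nppb was 8.24-fold, 9.93-fold and 10-fold sham at the 3 times. Myh7 and Xirp1, below sham at 72 h under TMM, were 2.26-fold and 1.95-fold higher on this scale (edgeR adjusted p = 0.00469 and 0.0267). The Xirp1 call on this scale was lost in 4 of 6 fits with 1 library left out, those without sham replicates 1 or 2 or 72 h replicates 2 or 3 (adjusted p up to 0.073). The Myh7 call at 6 h (2.26-fold, adjusted p = 0.0302) was lost in 5 of 6, all but that without 6 h replicate 2, and in the fit of 6 libraries (up to 0.124). At 72 h Acta1 was 3.66-fold higher (1.01e-08). Since most genes of all kinds were also called higher at 72 h on this scale, the count of 9 is near the background.

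**Figure D5:**
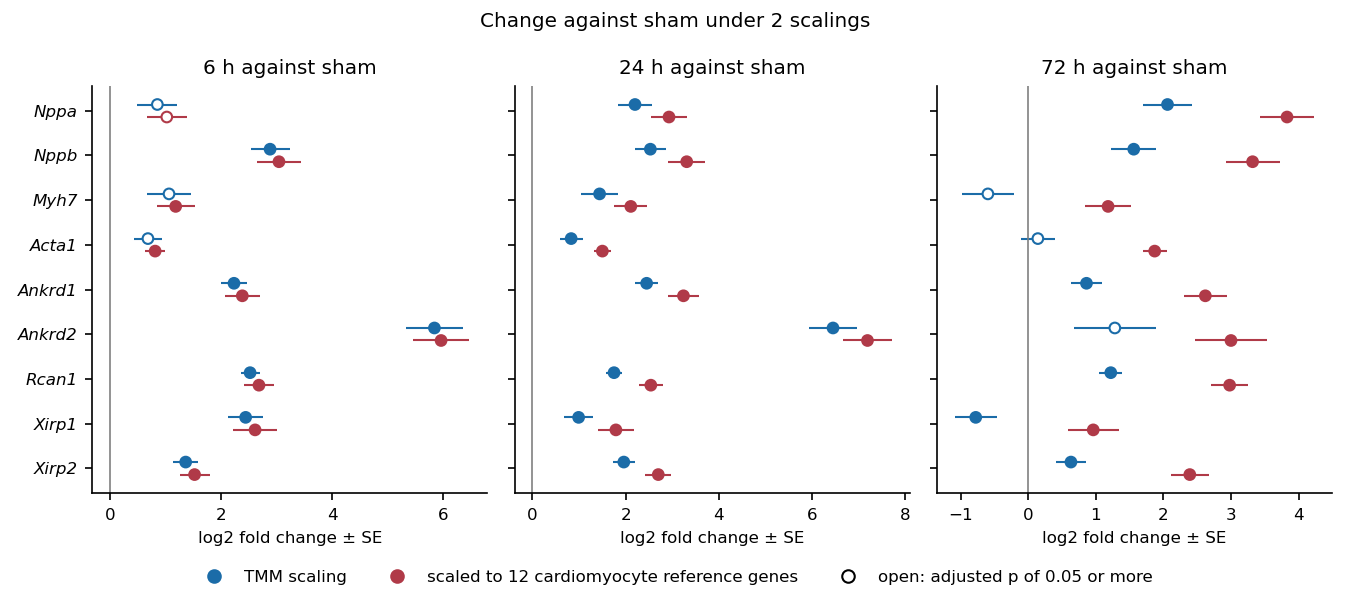
Log2 fold change against sham (± SE) of each member at 6, 24 and 72 h under TMM scaling (blue) and scaled to 12 cardiomyocyte reference genes (red); open points have an adjusted p of 0.05 or more. The scales nearly coincide at 6 h and part at 72 h, where Xirp1 is at -0.78 under TMM and 0.96 relative to cardiomyocyte genes.

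Across the 18 libraries the 36 pairs of members had Pearson correlations of log2 CPM from -0.03 (Nppa and Xirp1) to 0.97 (Ankrd1 with Nppb and with Ankrd2), with a median of 0.74. These values describe libraries that share the 6 group means and their scaling, and carry no test. Among 14049 other genes, the nearest to Nppa were Uchl1 and Lmna (r = 0.944 and 0.942), to Nppb Tnfrsf12a and Itga5 (0.982 and 0.974), to Myh7 Des and Aamp (0.916 and 0.894) and to Acta1 Nsmce3 and Nmrk2 (0.844 and 0.825). Ankrd1 was nearest to Nmrk2 and Tmbim1 (0.973 and 0.970), Ankrd2 to Tmbim1 and Ctps (0.964 and 0.954), Rcan1 to Osmr and Sphk1 (0.986 and 0.982), Xirp1 to Agt and Ppp1r2 (0.979 and 0.969) and Xirp2 to Otulin and Fhl1 (0.977 and 0.973). Nmrk2, a nicotinamide riboside kinase of muscle, went from 8.19 ± 0.877 CPM in sham to 187 ± 28.3 CPM at 24 h and 36.7 ± 6.2 CPM at 72 h (SD, n = 3). Tnfrsf12a, the receptor of TWEAK, was at 49.8 ± 0.649 CPM in sham and 331 ± 109 CPM at 6 h, and Agt, angiotensinogen, was at 2.24 ± 0.382, 29.2 ± 17.5 and 1.21 ± 0.239 CPM in sham, at 6 h and at 72 h.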

How the data were processed

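The authors deposited whole-number read counts per Ensembl gene and FPKM values, for the series and for each sample; the submitters' processing notes name cutadapt 1.18, HISAT2 2.1.0, featureCounts and mm10, with no use of strand given in the sources used here. Both tables held the same values (0 differed), and 0 columns lacked a sample. In the deposited FPKM table, 2 columns, those of 6 h replicates 2 and 3, each held the other's counts; counts were used throughout and FPKM only in 1 alternative, with these columns exchanged back. Symbols and coordinates are from GENCODE M21 (30512 IDs matched, 71 did not).

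Counts were analysed with edgeR 4.0.16 in R 4.3.3: filterByExpr (14272 genes removed, 16311 kept), TMM, glmQLFit (robust, all 18 libraries, 1 mean per group) and two-sided glmQLFTest, with Benjamini-Hochberg adjustment over the genes kept and a threshold of 0.05. A second fit set library scaling by 12 cardiomyocyte reference genes: Myh6, Actc1, Tnnt2, Tnni3, Myl2, Myl3, Tpm1, Actn2, Ttn, Mybpc3, Ryr2 and Pln. Ratios of paired genes are log2 ratios of counts per length within a library, compared by exact permutation. The fit and the tests were tested on simulated data. The labels do not pair the mice of different groups. In the main fit the edgeR p-values rest on the spread between mice of the same group, estimated for each gene over all 18 libraries. They do not rest only on the spread within the groups compared. The exact permutation p-values use only the libraries of the groups compared and no estimate of spread. Library totals were 18.2 to 25.1 M counts; counts are PCR reads without molecular identifiers.

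All 9 members are described; from each pathway list the 3 genes with the smallest F test p were named, and for each member the 2 genes of highest correlation. Single marker genes, Actc1, Mhrt and Gm13054 were named outside this rule, after their values were seen. The members and lists were chosen with earlier results of these data known. Other lists of markers were read per library: endothelial markers summed to 1192 to 1310 CPM in sham and 704 to 933 CPM at 72 h, red blood cell markers to 535 to 795 and 228 to 346 CPM, and adipocyte markers to at most 2.39 CPM in any library. Alternatives were DESeq2 1.42.0 and its size factors, library total scaling, limma 3.58.1 on log2(FPKM + 1), no filter or a minimum of 10 counts in every library, a fit of 6 libraries, a replicate block and leaving out each library.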

Additional observations from a re-analysis of the deposited data

Results flagged for a closer look

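A member is listed here when the difference between its changes from sham at 2 neighbouring times itself passed the edgeR test (adjusted p under 0.05); since both changes share the sham libraries, this is the direct contrast of the 2 times, given as the later minus the earlier time in log2 on the TMM scale. From 1 h to 6 h the differences were 2.92 for Nppb, 1.03 for Acta1, 2.51 for Ankrd1, 6.43 for Ankrd2, 2.38 for Rcan1, 1.78 for Xirp1 and 1.46 for Xirp2. From 6 h to 24 h they were 1.35 for Nppa, 0.60 for Xirp2, -0.77 for Rcan1 and -1.45 for Xirp1. From 24 h to 72 h they were -0.98 for Nppb, -2.03 for Myh7, -0.69 for Acta1, -1.59 for Ankrd1, -5.17 for Ankrd2, -0.53 for Rcan1, -1.77 for Xirp1 and -1.33 for Xirp2.

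Also listed are 4 atrial genes outside the 9 members that lay above every sham library in replicate 1 at 6 h: Myl4 at 59.1, Myl7 at 49.3, Sln at 42.6 and Bmp10 at 21.2 CPM. In that library the ratio of Nppb to Nppa was 696%, beside 721% and 735% in the other libraries of the group. Groups of 3 are too small to test single libraries as outliers.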

How the results depend on the processing

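Of 330 alternative values of the counts of called members and of the ratios, 319 kept their direction and size class; of 1646 alternative values of single members, 1493 kept direction and call, 65 lost the call, 42 gained it and 46 changed direction. Only 1 value called under both settings turned direction, Xirp1 at 72 h (log2 0.96 relative to cardiomyocyte genes); Myh7 at 72 h, not called under TMM, turned to 1.18 on that scale. Library total scaling moved the median of all genes by -0.12, 0.20 and 0.61 at 6, 24 and 72 h.

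With only the 6 libraries of a comparison in the fit, 2 members were called at 10 min and 1 at 1 h against sham (2 and 1 also relative to cardiomyocyte genes), 1 from 10 min to 1 h and 0 from 6 h to 24 h; all genes called at 10 min then numbered 360 in place of 12. Relative to cardiomyocyte genes with no filter, 1 was called at 1 h. From 24 h to 72 h the 8 calls became 5 under library total scaling, and 5 with limma on log2(FPKM + 1). Relative to cardiomyocyte genes 3 members were called at this step, Myh7 and Ankrd2 lower and Nppa, not called under TMM, higher. With 1 library left out, the counts against sham were 0, 0, 6 to 9, 7 to 9 and 4 to 5 at the 5 times, those of consecutive steps 0, 7 to 9, 3 to 4 and 5 to 7, and those relative to cardiomyocyte genes 0, 0, 7 to 9, 9 and 8 to 9; the 5 from 24 h to 72 h came without 72 h replicate 3. The cause was not tested.

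With 1 library left out, these values, none called with all libraries, lay on both sides of 0 or at it. Against sham, Nppb ran from -0.21 to 0.06 at 10 min and -0.36 to 0.15 at 1 h, Nppa from -0.39 to 0.21 and -0.04 to 0.55, and Myh7 at 1 h from -0.08 to 0.18. Relative to cardiomyocyte genes, Nppb ran from -0.10 to 0.08 at 10 min and -0.31 to 0.16 at 1 h, Nppa at 10 min from -0.33 to 0.22, and at 1 h Xirp2 from -0.15 to 0.00 and Myh7 from -0.03 to 0.20. From 10 min to 1 h, Nppb ran from -0.28 to 0.22, Ankrd1 from -0.13 to 0.15, Acta1 from -0.03 to 0.28 and Ankrd2 from -0.07 to 0.96. From 6 h to 24 h, Nppb ran from -0.71 to 0.02, Acta1 from 0.00 to 0.43, Myh7 from -0.01 to 0.93 and Ankrd1 from -0.05 to 0.42, and from 24 h to 72 h Nppa ran from -0.26 to 0.02. The other turns of direction were as follows. From 10 min to 1 h Ankrd1 was at 0.01 with DESeq2 or its size factors and 0.00 with a minimum of 10 counts or 6 libraries, and Nppb at 0.00 under library total scaling and -0.05 with limma. From 6 h to 24 h Nppb was at 0.12 with limma and 0.27 relative to cardiomyocyte genes. From 24 h to 72 h Nppa was at 0.25 under library total scaling, 0.27 with limma and 0.90 relative to cardiomyocyte genes, and on the last scale Nppb was at 0.01, Acta1 at 0.38 and Rcan1 at 0.44.

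The replicate numbers do not pair the mice: of 45 same-numbered pairs 4 had deviations correlated above 0.1 (median 0.04). With the replicate block the counts were 0, 0, 6, 9 and 6 members against sham and 0, 7, 3 and 8 for consecutive steps; only Xirp2 from 6 h to 24 h lost its call (adjusted p = 0.0569).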
